A study of Rattus norvegicus with 4 samples.

Results

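Transcript levels of 10 immediate early genes were followed in glomeruli of 4 male Wistar rats, all of which had received Adriamycin (ADR), also called doxorubicin, into a vein. The members, Fos, Fosb, Jun, Junb, Egr1, Atf3, Ier2, Dusp1, Nr4a1 and Zfp36, were chosen by gene symbol, and 10 of 10 were found among the 13265 genes listed for the series, each under a single identifier. Adriamycin is an anthracycline that injures podocytes and is used to model nephrotic syndrome in rodents. Glomeruli were isolated by sieving and polyadenylated RNA was sequenced. The labels give neither the age of the rats nor the ADR dose, and they name more than one harvest day without tying a day to an animal. Untreated rats were not analysed here, so every value describes differences among ADR rats, and animal, harvest day and handling of a kidney cannot be told apart.

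Immediate early genes are transcribed soon after a stimulus without new protein synthesis, when kinases act on transcription factors already bound to their promoters, among them serum response factor (SRF) at CArG boxes and CREB at cyclic AMP response elements (CRE). Fos, Fosb, Jun and Junb encode subunits of the AP-1 transcription factor, Egr1, Atf3 and Nr4a1 encode other transcription factors, and Dusp1 and Zfp36 encode proteins that switch the response off again. Growth factors, stress and the handling of fresh tissue are all known inducers of this class.

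Reads assigned to the 13261 genes used came to between 13566962 and 16207027 per rat, with the smallest total in replicate 1. The share from mitochondrial genes ran from 7.46% in replicate 1 to 12.5% in replicate 2. Levels are given as CPM, a gene's reads scaled to a library total of 1000000, or as log2 CPM as deposited. The labelled tissue was checked against glomerular markers: the podocyte list (10 genes) had a summed level of 6368 to 10963 CPM, and Kdr, an endothelial receptor gene, had 1504 to 2195 CPM. The proximal tubule list (8 genes) was present too, with a summed level of 2661 to 5527 CPM. In bulk RNA, fewer cells of a type and less RNA per cell cannot be told apart. The labels list 4 replicates without stating that each is a separate animal; they are called rats here, and a p-value measures only the spread between these samples.

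Promoter sequences were available for 7 of the 10 genes in RefSeq, on the rat build GRCr8, as windows of 250 bases before and 50 after each gene's start. Those of Fos, Jun and Atf3 were not analysed here. The submitters' processing notes name another build, Rnor_6.0, so these windows give sequence context only. The full CRE, TGACGTCA, which reads the same on both strands, was found in the windows of Dusp1 and Ier2, against 1.91% of all 27457 promoters. A CArG box was found in those of Egr1 (2 matches) and Zfp36 (1 match), against 1.64% of all promoters, and this motif too was read on both strands. The CRE half-site, TGACG or its reverse complement CGTCA, which the full CRE contains, was found in 5 of the 7 windows against 22.0% of all promoters; Nr4a1 had 4 matches. The AP-1 motif TGANTCA, which also reads the same on both strands, was found in 0 of the 7 windows and in 7.33% of all promoters. The EGR motif, GCGNGGGCG or its reverse complement, was found in those of Nr4a1 and Zfp36, against 5.29% of all promoters. A match is a description of the letters and does not show binding. The 4 windows below show both motif classes in genes whose levels are compared next; capitals mark CRE half-sites (which merge into the full CRE) in Dusp1, Ier2 and Nr4a1, and the CArG box in Zfp36.
Dusp1, chr10:17184603-17184902, plus strand: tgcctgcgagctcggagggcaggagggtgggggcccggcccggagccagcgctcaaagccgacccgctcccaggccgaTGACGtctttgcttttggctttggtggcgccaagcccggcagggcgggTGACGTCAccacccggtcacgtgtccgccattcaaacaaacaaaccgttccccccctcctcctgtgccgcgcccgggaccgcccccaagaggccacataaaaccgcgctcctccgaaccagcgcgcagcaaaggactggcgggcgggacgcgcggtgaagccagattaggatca
Ier2, chr19:40399123-40399422, plus strand: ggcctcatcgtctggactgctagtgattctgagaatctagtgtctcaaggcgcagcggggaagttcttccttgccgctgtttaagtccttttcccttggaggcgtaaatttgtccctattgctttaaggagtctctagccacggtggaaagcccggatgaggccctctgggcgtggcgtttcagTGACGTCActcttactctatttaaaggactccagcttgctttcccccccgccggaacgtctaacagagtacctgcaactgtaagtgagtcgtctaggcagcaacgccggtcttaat
Nr4a1, chr7:134259888-134260187, plus strand: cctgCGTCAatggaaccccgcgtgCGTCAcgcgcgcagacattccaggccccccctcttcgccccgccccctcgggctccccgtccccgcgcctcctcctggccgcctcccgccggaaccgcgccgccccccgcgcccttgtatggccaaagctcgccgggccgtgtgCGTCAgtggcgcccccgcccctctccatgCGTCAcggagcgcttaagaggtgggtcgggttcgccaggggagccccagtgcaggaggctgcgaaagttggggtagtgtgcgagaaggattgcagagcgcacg
Zfp36, chr1:92799059-92799358, minus strand: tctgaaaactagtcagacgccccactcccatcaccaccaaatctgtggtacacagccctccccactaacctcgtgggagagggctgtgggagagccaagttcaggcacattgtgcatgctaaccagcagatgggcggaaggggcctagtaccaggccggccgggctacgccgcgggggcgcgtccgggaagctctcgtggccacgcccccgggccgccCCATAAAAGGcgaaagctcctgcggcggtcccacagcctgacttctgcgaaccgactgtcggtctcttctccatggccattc

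Dusp1 (ENSRNOG00000003977), the phosphatase that inactivates MAP kinases, set the reference order of the rats. Replicates 1 to 4 had 153, 248, 414 and 306 CPM, with a mean of 281 ± 109 CPM (SD, n = 4). Replicate 3 was thus highest and replicate 1 lowest, 2.70-fold apart, and the exact Poisson 95% intervals, which cover counting error only, did not overlap between any pair of rats. The other repressor of the response, Zfp36 (ENSRNOG00000058388), encodes a protein that binds AU-rich mRNAs and promotes their decay. It had 71.4, 64.6, 116 and 105 CPM in replicates 1 to 4, a mean of 89.3 ± 25.1 CPM. Replicates 3 and 4 were both above replicates 1 and 2, by intervals that did not overlap, whereas within each of these pairs the intervals overlapped.

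Fos (ENSRNOG00000008015), the AP-1 subunit that pairs with Jun proteins, followed Dusp1 most closely. It had 13.6, 22.6, 39.8 and 31.9 CPM in replicates 1 to 4 (mean 27.0 ± 11.4 CPM, SD, n = 4), from 184, 367, 611 and 486 reads. All 4 rats were set apart by counting intervals, in the order of Dusp1, and the highest value was 2.94 times the lowest. The log2 difference of Fos from Dusp1 varied little between rats, from -3.50 in replicate 1 to -3.26 in replicate 4, with an SD of 0.10. Each gene on its own had an SD of 0.68 (Fos) or 0.60 (Dusp1) on that scale.

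Jun (ENSRNOG00000026293), the partner subunit, did not share this pattern. Replicates 1 to 4 had 242, 238, 249 and 234 CPM, a mean of 241 ± 6.15 CPM (SD, n = 4). The intervals of all 4 rats overlapped, so no order could be read, and the highest value was 1.06 times the lowest. The SD of its log2 CPM, 0.04, was undercut by only 1.58% of the 13261 genes. As a result the log2 difference of Fos from Jun ranged from -4.15 in replicate 1 to -2.64 in replicate 3.

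Junb (ENSRNOG00000042838), an AP-1 subunit that can replace Jun in the dimer, had 108, 143, 166 and 189 CPM in replicates 1 to 4, a mean of 152 ± 34.6 CPM (SD, n = 4). All rats were set apart by counting intervals, and the order differed from that of Dusp1 in the place of replicates 3 and 4. Fosb (ENSRNOG00000046667), a paralog of Fos, was the member with the fewest reads, 99, 228, 157 and 129, or 7.30, 14.1, 10.2 and 8.46 CPM. It was highest in replicate 2, whose interval lay above those of the other 3 rats. The log2 difference of Fosb from Fos was -0.89, -0.69, -1.96 and -1.91 over the same rats, so Fosb was nearer to Fos in replicates 1 and 2.

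Egr1 (ENSRNOG00000019422), a zinc finger factor and direct SRF target, had 40.2, 34.7, 53.2 and 57.5 CPM in replicates 1 to 4, a mean of 46.4 ± 10.7 CPM (SD, n = 4). Replicates 3 and 4 again lay above replicates 1 and 2, with overlap inside each pair. Nr4a1 (ENSRNOG00000007607), an orphan nuclear receptor, had 98.0, 102, 160 and 119 CPM, a mean of 120 ± 28.2 CPM. Its order was that of Dusp1, with replicates 1 and 2 not told apart. Ier2 (ENSRNOG00000054344), a nuclear protein of the growth response, had 90.8, 116, 126 and 125 CPM, a mean of 114 ± 16.4 CPM. Its order was also that of Dusp1, but only replicate 1 was set apart. The deposited table gives the biotype of Ier2 as pseudogene, while RefSeq lists it as protein-coding.

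Atf3 (ENSRNOG00000003745), a stress-induced factor of the ATF/CREB family, showed another order. Its level was 19.8, 25.7, 18.0 and 27.7 CPM in replicates 1 to 4, a mean of 22.8 ± 4.66 CPM (SD, n = 4). Replicates 2 and 4 lay above replicates 1 and 3, with overlap inside each pair, so the rat with the highest Dusp1 was among those with less Atf3. Transcript lengths were not used here, so levels are not ranked between genes.

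**Figure D1:**
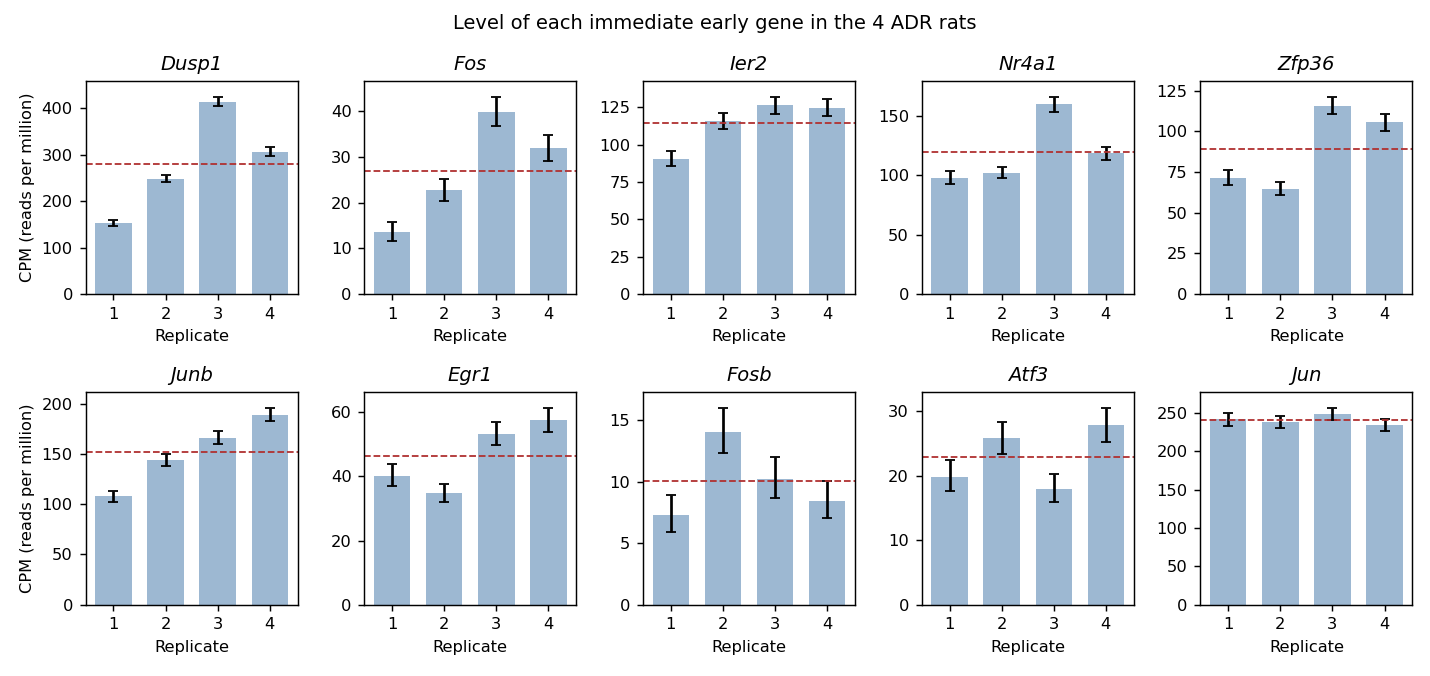
Level of each of the 10 genes in CPM (vertical axis, from 0) in replicates 1 to 4 (horizontal axis). Bars are single libraries, error bars are exact Poisson 95% intervals for counting error and the dashed line is the mean over 4 rats; Dusp1 and Fos are highest in replicate 3, and Jun is almost level.

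Ranks of the rats were shared in part. Replicate 3 was highest for 6 of the 10 genes, against 29.6% of all genes, replicate 4 for 3 (all genes 21.4%), replicate 2 for 1 (all genes 21.3%) and replicate 1 for 0 (all genes 27.7%). Replicate 1 was lowest for 6 of the 10, against 35.0% of all genes, replicate 2 for 2 (all genes 31.5%), replicate 3 for 1 (all genes 19.6%) and replicate 4 for 1 (all genes 13.9%). Replicate 3 lay above replicate 1 for 9 of the 10, against 55.4% of all genes, the exception being Atf3, in which these rats were not told apart by counting intervals. Replicate 4 lay above replicate 1 for 9 of the 10, against 56.1% of all genes, the exception being Jun, in which they were not told apart either. These counts go by level alone, and Jun, whose order could not be read, is among the 6 genes highest in replicate 3. In a count chosen after the values were seen, both replicates 3 and 4 lay above both replicates 1 and 2 for 7 genes, Fos, Junb, Egr1, Ier2, Dusp1, Nr4a1 and Zfp36, against 19.5% of all genes. No test is given for these counts, because the genes share their 4 rats and are not independent.

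The full order of Dusp1, replicate 3 first, then 4, 2 and 1, was shared by Fos, Ier2 and Nr4a1, which are 3 of the 9 other members, against 6.90% of all genes. Over the 9 other members and the 6 pairs of rats, 42 of 54 comparisons, or 77.8%, had the direction seen in Dusp1, whereas genes outside the list had a mean of 54.2%. In 35 of the 54 the counting intervals did not overlap, and 30 of those 35 had the direction of Dusp1. The 5 that did not came from Fosb, Atf3 and Junb. By level alone, 6 of 6 pairs had the direction of Dusp1 in Fos, Ier2 and Nr4a1, of which counting intervals set apart 6, 3 and 5. The count was 5 of 6 for Junb and Zfp36, 4 of 6 for Egr1 and Fosb, and 3 of 6 for Atf3 and Jun.

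**Figure D2:**
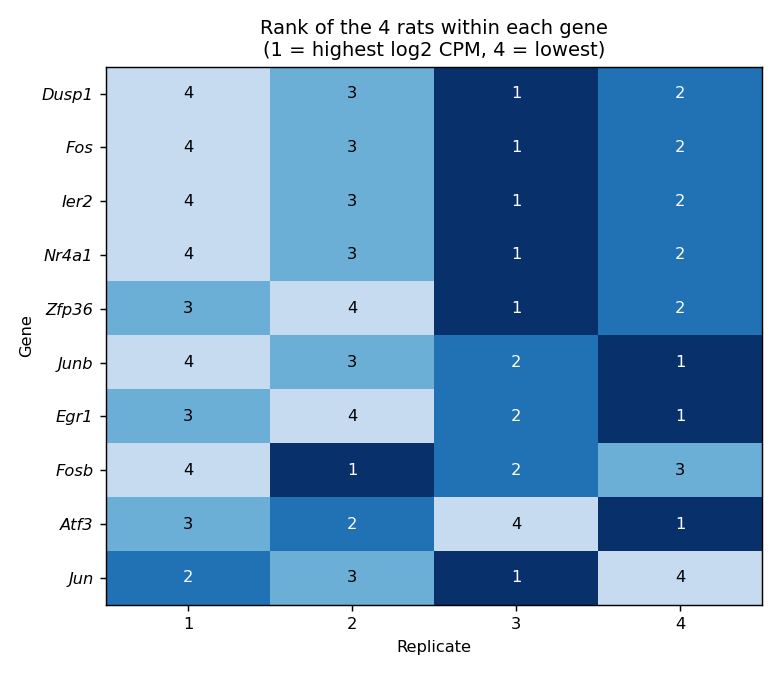
Rank of the 4 rats (columns) within each gene (rows), from 1 for the highest log2 CPM to 4 for the lowest; darker cells are higher levels. The first 4 rows, Dusp1, Fos, Ier2 and Nr4a1, have the same order, and the lower rows depart from it.

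Whether these differences exceeded counting error was tested for all genes with a chi-square index of dispersion on whole reads. Of the 10 members, 9 passed at a Benjamini-Hochberg adjusted p under 0.05, as did 69.5% of all genes. The statistic (3 degrees of freedom) was 1828 for Dusp1, 337 for Junb, 323 for Zfp36, 300 for Nr4a1 and 206 for Fos. Jun did not pass (statistic 7.25, adjusted p = 0.0869). Jun passed with mitochondrial genes left out of the total (adjusted p = 0.00322) and without replicate 1 (adjusted p = 0.0497), and adjusted p ran from 0.00322 to 0.516 over all alternatives of this test.

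The spread was then compared with that of genes of like abundance. The members' SD of log2 CPM had a median of 0.34, against 0.18 for all genes, and 9 of the 10 lay above the median of all genes. The F test of limma against its abundance trend called 0 of the 10 members and 0 of 13261 genes (0%) at an adjusted p under 0.05. At an unadjusted p under 0.05, 3 members passed, Fos, Dusp1 and Zfp36, as did 725 genes, or 5.47%. The adjusted p of limma was 0.912 for each of the 3, which was also the smallest over all genes. Since limma called no gene at all, its 0 does not show that the members varied like other genes. A Pearson statistic of the reads at a fixed dispersion trend, a less cautious test that treats the trend as known, called 4 members, Fos, Dusp1, Nr4a1 and Zfp36, against 7.52% of all genes. The adjusted p of this trend test was 0.000327 for Dusp1, 0.00633 for Zfp36 and 0.0376 for Nr4a1. In simulated data this test called 4 of 13061 unchanged genes and limma 0. Those data gave every gene the same dispersion, as the trend test assumes, so they do not show its error rate on the real genes. Without replicate 1, the trend test called Zfp36 alone in the real data (1 member, all genes 5.01%). Fos and Dusp1 (2 members) were called without replicate 3 (all genes 4.48%) or without replicate 4 (all genes 4.72%). Without replicate 2, 4 were called (all genes 5.38%), with Junb in place of Zfp36. The call of Nr4a1 was also lost with TMM factors (adjusted p = 0.0595) and with median-of-ratios factors (adjusted p = 0.0646).

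**Figure D3:**
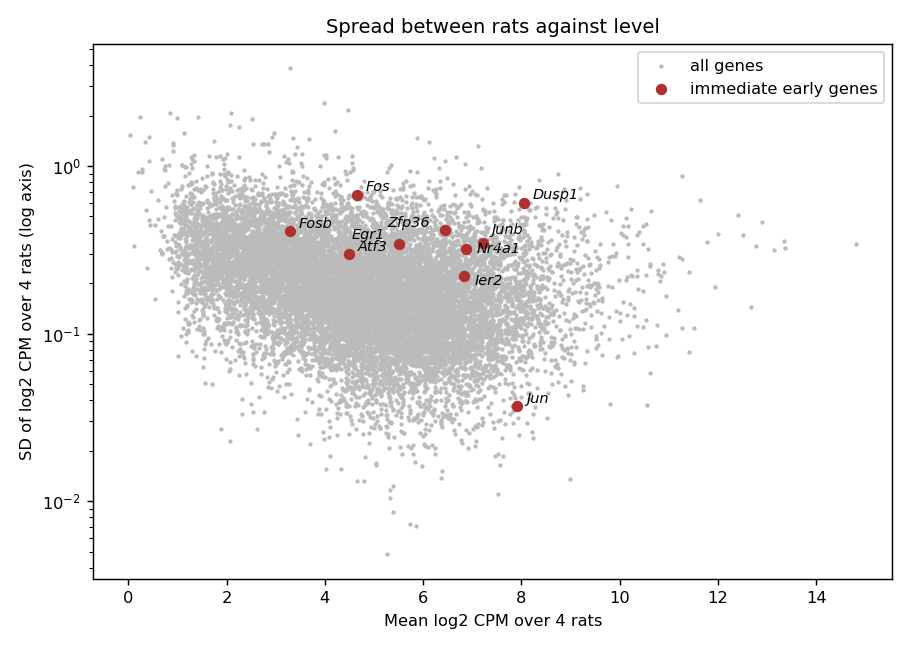
SD of log2 CPM over the 4 rats (vertical, log axis) against mean log2 CPM (horizontal) for all 13261 genes in grey and the 10 immediate early genes in red. Fos and Dusp1 lie near the upper edge for their level, and Jun near the lower edge.

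Other genes of this class were examined in a list of 40, of which 38 had values; Egr2 and Egr3 were not analysed here. Replicate 1 was lowest for 20 of the 38 (52.6%, all genes 35.0%) and replicate 3 highest for 12 (31.6%), the latter close to the 29.6% of all genes. The order of Dusp1 was found in 6 (15.8%, all genes 6.90%), namely Btg2, Klf2, Klf6, Sik1, Rhob and Ccn1. In Klf6 the intervals of all rats overlapped, so its order could not be read from the counts. In the whole list, 62.7% of pairwise comparisons had the direction of Dusp1, against a mean of 54.2% for genes outside the members. The median SD of the 38 genes was 0.26 and limma called 0, with 5 at an unadjusted p under 0.05 (all genes 5.47%). The trend test called 6 (all genes 7.52%), namely Klf10, Sik1, Socs3, Nfkbia, Cebpb and Cebpd. Sik1, a kinase gene induced by cyclic AMP, had 14.2, 20.4, 37.1 and 23.4 CPM in replicates 1 to 4. This was the order of Dusp1, with replicates 2 and 4 not told apart by counting intervals. Klf10, a TGF-beta-induced zinc finger gene, had 53.9, 96.0, 39.1 and 58.8 CPM and was lowest in replicate 3. Socs3, an inhibitor of cytokine signalling and the most variable of the list, had 8.33, 24.6, 16.1 and 25.2 CPM, with replicate 1 lowest. Plk2, a kinase gene, varied least, at 66.9, 66.1, 65.5 and 64.6 CPM.

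The kinases and factors that act upstream of immediate early genes differed less between rats. The 16 genes of the SRF and MAP kinase list had a median SD of 0.12, below the 0.18 of all genes, and neither limma nor the trend test called any of them. At an unadjusted p under 0.05 limma had 0. Of their 96 pairwise comparisons, 61 (63.5%) had the direction of Dusp1, close to the 62.7% of the other immediate early genes. Elk3, an SRF partner, had the order of Dusp1 by level, but counting intervals set only replicate 3 apart. The extremes were Rps6ka5, a kinase gene with 10.6, 14.8, 15.9 and 16.1 CPM in replicates 1 to 4, and Mapk14, the p38 kinase gene, with an SD of 0.05. These are mRNA levels and carry no measure of kinase activity.

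Heat shock genes, which tissue handling can move, and glucocorticoid-induced genes were mostly highest in replicate 2. Among 10 heat shock genes, 8 were highest in replicate 2 (all genes 21.3%) and 0 in replicate 3 (all genes 29.6%). Of their comparisons, 35.0% had the direction of Dusp1, against a mean of 54.2% for genes outside the members. Hspa1b, an inducible Hsp70 gene and the most variable of the list, had 40.2, 80.6, 48.5 and 41.7 CPM in replicates 1 to 4, and Dnajb1, its co-chaperone, varied least (SD 0.11). Of the 13 glucocorticoid-induced genes, a list that includes Dusp1 and Zfp36, 8 were highest in replicate 2, against 21.3% of all genes. Without these 2 members, 32 of the 66 comparisons of the other 11 genes, or 48.5%, had the direction of Dusp1, against 54.2% of genes outside the members. The 11 ranged from 1 of 6 pairs, in Per1, Klf15 and Errfi1, to 5 of 6, in Sgk1 and Ddit4, and in Ddit4 the counting intervals set only 1 pair apart. Fkbp5, a cochaperone of the glucocorticoid receptor, had 77.8, 205, 96.9 and 57.1 CPM. Zbtb16 had 9.51, 100.3, 31.2 and 2.10 CPM, and Mt2A, a metallothionein gene, had 62.1, 226, 125 and 126 CPM. All 3 were highest in replicate 2, and no list gene other than Dusp1 had the order of Dusp1. Ddit4 varied least, with an SD of 0.12. The trend test called 6 of the 13 (Fkbp5, Zbtb16, Mt1, Mt2A, Dusp1 and Zfp36) and 1 of the 10 heat shock genes, Hspa1b, against 7.52% of all genes. The 1 of 10 is near that share. The limma test called 0 of either list, with 6 and 1 at an unadjusted p under 0.05 (all genes 5.47%).

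Of 10 mRNAs listed as targets of the Zfp36 protein, 5 had values. Il1b, encoding an inflammatory cytokine, had 3.24, 4.81, 12.8 and 9.51 CPM in replicates 1 to 4, the order of Dusp1, from 44 to 196 reads; replicates 1 and 2, and 3 and 4, were not told apart by counting intervals. Ptgs2, encoding an inducible cyclooxygenase, had 17.8, 6.73, 9.32 and 13.6 CPM and was highest in replicate 1. The trend test called these 2 (all genes 7.52%), and limma called 0, with the same 2 at an unadjusted p under 0.05 (all genes 5.47%). Ier3, also in the list of other immediate early genes, varied least (SD 0.21). Of the 30 pairwise comparisons of the 5 genes, 20 (66.7%) had the direction of Dusp1.

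Markers of several cell types differed between the rats too, and their part in the members' values was not tested. The trend test called 6 of 10 podocyte, 7 of 8 proximal tubule, 2 of 8 leukocyte and 0 of 8 endothelial markers, against 7.52% of all genes. It called 1 of 6 mesangial, 1 of 6 distal nephron and 2 of 6 parietal markers. The limma test called 0 of each list, with 6, 6, 2, 0, 1, 1 and 2 in the same order at an unadjusted p under 0.05 (all genes 5.47%). Of 8 leukocyte markers, 7 were lowest in replicate 1 (all genes 35.0%) and 5 highest in replicate 3 (all genes 29.6%). Of their comparisons, 81.2% had the direction of Dusp1, against a mean of 54.2% for genes outside the members. Ptprc, the pan-leukocyte marker CD45, had 48.4, 66.1, 108 and 70.8 CPM in replicates 1 to 4, the order of Dusp1, with replicates 2 and 4 not told apart. Cd3e and Itgam had the same order by level, but the counting intervals of all neighbours in it overlapped. The summed level of these markers was 1042, 1335, 1309 and 1224 CPM, and none was at 0; the T cell marker Cd3e was lowest, at 1.18 to 3.32 CPM. The 8 endothelial markers were highest in replicate 3 in 6 cases (all genes 29.6%) and lowest in replicate 1 in 5 (all genes 35.0%). For them 77.1% of comparisons had the direction of Dusp1, though Emcn alone had the full order of Dusp1. Their summed levels were 5650 to 7309 CPM. All 8 proximal tubule markers were lowest in replicate 3 (all genes 19.6%) and 7 of them highest in replicate 1 (all genes 27.7%). For these markers 12.5% of comparisons had the direction of Dusp1. The 10 podocyte markers were highest in replicate 1 in 9 cases (all genes 27.7%) and lowest in replicate 2 in 9 (all genes 31.5%), with 40% in that direction. Mesangial (6 genes), distal nephron (6) and parietal (6) markers had 55.6%, 58.3% and 33.3%.

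**Figure D4:**
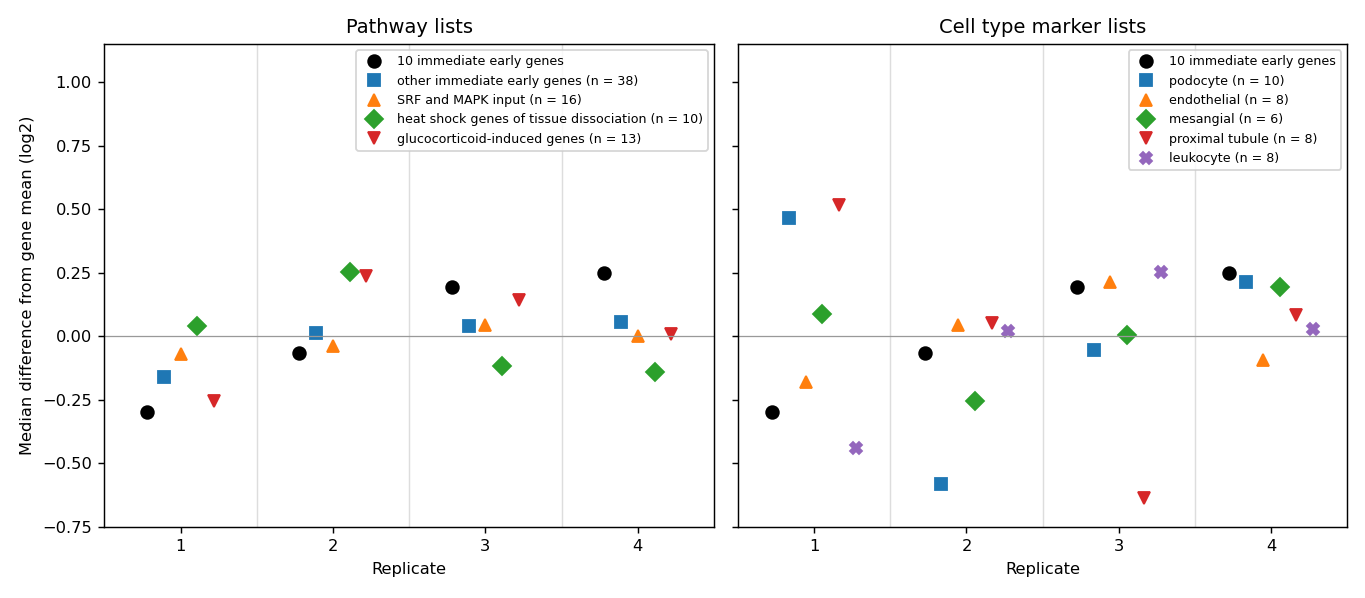
Median over each list of the difference of log2 CPM from the gene's own mean (vertical) in replicates 1 to 4 (horizontal), for pathway lists on the left and marker lists on the right, with the 10 immediate early genes in black. The members' median runs from -0.30 in replicate 1 to 0.25 in replicate 4; the leukocyte median is also lowest in replicate 1, and the proximal tubule median is lowest in replicate 3.

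The genes most like Dusp1 were sought by the root mean square difference of log2 CPM, after each gene's mean was subtracted, over the 4 rats. The search covered 12749 genes, those with log2 CPM of at least 1 in each rat (12866) less the members and genes that share a symbol. Among the nearest were Cxcr4 (0.06), P2ry10 (0.08), Ptprcap (0.08) and Cd37 (0.08). Cxcr4, a chemokine receptor gene, had 87, 188, 292 and 207 reads in replicates 1 to 4, and Ptprcap, which encodes a CD45-associated protein, had 52, 97, 149 and 100. Fos stood at a distance of 0.09, with 8 of the 13261 genes nearer to Dusp1, that count including Dusp1 itself. Junb (0.30) had 459 genes nearer, Nr4a1 (0.30) 470, Zfp36 (0.33) 674 and Ier2 (0.35) 873. Egr1 had 1980, Fosb 5967, Jun 6293 and Atf3 9404. The nearest genes to the members' median profile were Sgca, Ddx31, AC128207.1, Nemp2 and Gm5471, at 0.03 to 0.04. These names describe profiles over 4 libraries and were given no test.

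**Figure D5:**
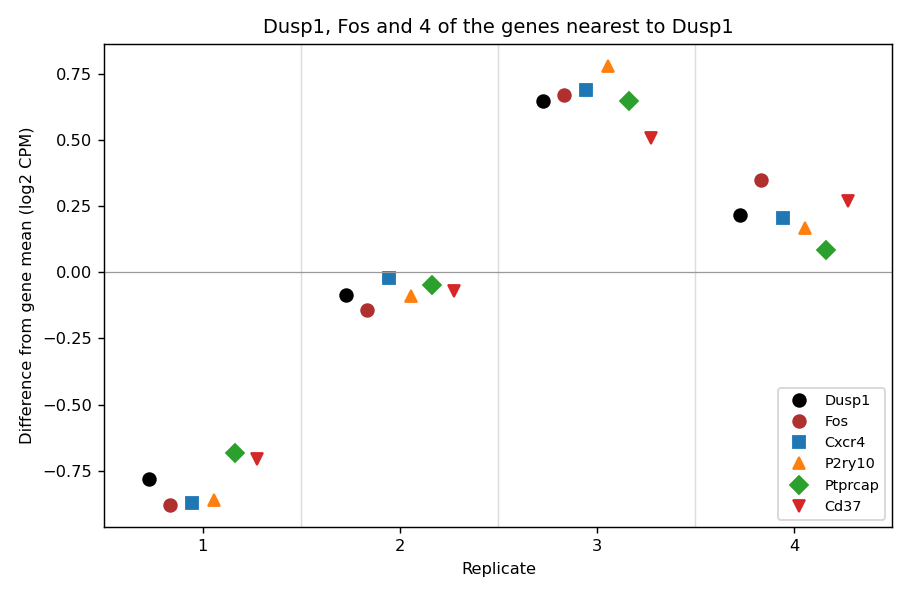
Difference of log2 CPM from each gene's mean (vertical) in replicates 1 to 4 (horizontal) for Dusp1, Fos and 4 of the genes nearest to Dusp1. Each plotted gene is lowest in replicate 1 and highest in replicate 3.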

How the data were processed

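Poly(A) RNA libraries of 4 ADR rats were analysed as 1 group, numbered by accession only to name them. The submitters' processing notes name HISAT2, Subread, featureCounts and limma and the build Rnor_6.0, without roles or versions; strand use in counting and the filter on low genes are not given in the sources used here. The deposited values are log2 CPM. From the values, each is the log2 of a whole number of reads plus 0.5, times a constant per sample; 100% of values were whole within 0.01 reads, and a single read was worth 0.0617 to 0.0737 CPM. Of the 13265 rows, 4 with displaced cells were left out, and 116 rows sharing a symbol were fitted but not named. The number of value columns without a sample was 0.

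Tests ran over all 13261 genes with a Benjamini-Hochberg threshold of 0.05: a chi-square index of dispersion on recovered reads, and the F test of an intercept-only limma fit (limma 3.58.1, R 4.3.3) on log2(CPM + 1) against its abundance trend. The alternative Pearson statistic used a dispersion fixed in each of 40 bins of mean reads. No contrast could be tested, for want of a second condition. Exact Poisson 95% intervals treat each read as an independent count and cover counting error only. Reads carried no molecular identifiers, so duplicate reads could not be told apart and the intervals may be too narrow. Other scalings (TMM, median of ratios, total without mitochondrial genes), pseudocounts, a filter on low values and leaving out each replicate were tried. On simulated data for 13261 genes, with 100 genes changed 2-fold and 100 changed 4-fold in 1 replicate, limma called 17% and 100%, and the trend test 83% and 100%. The members and lists were chosen with earlier results of these data known. Named genes were the 10 members, list genes past a threshold or with the largest or smallest SD of their list, and the 5 nearest profiles, of which 1 is not reported here; other genes named were chosen after their values were seen. The list of 41 symbols of other immediate early genes holds Ccn1 under its older symbol as well. Promoters came from RefSeq (GRCr8), matched by symbol.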

Additional observations from a re-analysis of the deposited data

Results flagged for a closer look

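The gap between an extreme rat and its neighbour, as a share of the range over 4 rats, was computed for 139 genes, the 10 members and the genes of the lists. It passed Dixon's 95% critical value for 3 genes, where chance alone gives about 1 in 20, or 6.95. None of the 10 members was among them. Dusp6, a MAP kinase phosphatase gene, was set apart by replicate 2 (ratio 0.884), with 96.1 CPM against 124 to 128 CPM in the other rats. Mapk8, the JNK1 gene, was set apart by replicate 3 (ratio 0.902), with 12.5 CPM against 10.7 to 10.8 CPM, within counting error by the chi-square test on reads (adjusted p = 0.409). Myc, a growth-response transcription factor gene, was set apart by replicate 1 (ratio 0.904), with 91 reads against 164 to 182.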

How the results depend on the processing

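Of 203 recomputed values, 195 kept their criterion and 8 did not. Counts, percentages and SDs were held to within 1.5 times, and mean levels to within 1 SD, which leaving out 1 of 4 rats can hardly exceed. The number of members varying beyond genes of like abundance was 0 under limma in every setting tried. As limma called 0 of all genes in each setting too, this sameness carries little weight. The number was 4 with the Pearson statistic at a fixed dispersion trend. By that statistic it was 3 with TMM factors (all genes 8.30%) or median-of-ratios factors (all genes 8.22%), the call of Nr4a1 being lost. Agreement with Dusp1 ran from 74.1% to 81.5% when each replicate was left out and from 75.9% to 79.6% over scalings, where genes outside the list had 49.7% to 53.7%. With TMM or median-of-ratios factors replicate 3 was highest for 5 members in place of 6, Jun moving to replicate 1. The other 7 changes were SDs of log2 CPM: without replicate 1, Fos had 0.41, Dusp1 0.37, Junb 0.20 and Ier2 0.07; without replicate 2, Fosb had 0.24; without replicate 3, Nr4a1 had 0.15 and Jun 0.02. Dropping a rat at an end of a gene's range narrows that range by construction. The largest shift by scaling was 0.053 (log2), in replicate 2 with mitochondrial genes left out of the total. No paired analysis was possible because there is a single group. At 99 to 228 reads, Fosb is the member that depth limits most.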
